A study of Mus musculus with 3 samples.

Results

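The genes described here are 10 genes of cellular iron handling, followed in the enamel organ of the mouse incisor, the epithelium that makes enamel. They were chosen by name for their roles in iron biology: the ferritin chains Fth1 and Ftl1, the transferrin receptors Tfrc and Tfr2, the carrier transferrin (Trf), the ferrireductase Steap3, the importer Slc11a2, the exporter Slc40a1, and the iron regulatory proteins Aco1 and Ireb2. Each of the 10 was found among the 20937 genes listed in the count table, and each passed the filter on low counts.

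Whole incisor enamel organs of male mice aged 4 weeks were used for RNA sequencing, in 3 libraries, 1 per genotype. Stim1 cKO was Stim1 fl/fl with AmelX-iCre, Stim1 HT was Stim1 fl/wt with the same Cre, and Stim1 Ctrl was Stim1 fl/fl without Cre. STIM1 is the calcium sensor of the endoplasmic reticulum that opens store-operated channels, and AmelX-iCre is driven by the amelogenin promoter, so that the deletion is directed to ameloblasts from the secretory stage onwards, while the dissected tissue also held other cells. The study treated Stim1 HT and Stim1 Ctrl together as controls, although they differ in Cre and in the number of floxed alleles, and no genotype had a replicate.

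Cells take up iron mainly as transferrin bound to its receptor TFRC. In the endosome STEAP3 reduces the released iron and SLC11A2 carries it to the cytosol, where it is used, stored in ferritin or exported by ferroportin, the product of Slc40a1. The iron regulatory proteins encoded by Aco1 and Ireb2 bind a short hairpin, the iron-responsive element, when iron is scarce. Bound in a 5' UTR the proteins block translation, and bound in the 3' UTR of Tfrc they protect the mRNA from decay. Maturation-stage ameloblasts of rodent incisors are known for storing large amounts of iron in ferritin before it is laid down in the yellow-brown surface enamel, and RNA counts do not measure that iron or the ferritin protein.

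The hairpins are shown first, because they tie the storage, uptake and export genes to the regulators. Annotated transcripts of GENCODE M21 on GRCm38 were searched on their sense strand for a C, any 5 bases, a loop of CAGTGN, and 5 bases that pair with the first 5, with G-U pairs allowed. Such letters were found in a UTR of 4 of the 10 genes and of 160 of 21901 protein-coding genes (0.731%). In 5' UTRs they were found in 31 genes (0.142%), among them Fth1, Ftl1 and Slc40a1. In the sequences below, read 5' to 3' on the strand of the gene, capitals mark the loop.
Fth1, 5' UTR, chr19:9982732-9982760, plus strand: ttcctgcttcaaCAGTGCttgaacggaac
Ftl1, 5' UTR, chr7:45459779-45459807, minus strand: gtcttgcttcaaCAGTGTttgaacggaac
Slc40a1, 5' UTR, chr1:45925465-45925493, minus strand: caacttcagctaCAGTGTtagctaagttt
Tfrc, 3' UTR, chr16:32631219-32631247, plus strand: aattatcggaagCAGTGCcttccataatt
Tfrc, 3' UTR, chr16:32631598-32631626, plus strand: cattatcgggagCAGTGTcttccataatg
Tfrc, 3' UTR, chr16:32631663-32631691, plus strand: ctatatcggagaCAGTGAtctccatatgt
Tfrc, 3' UTR, chr16:32631710-32631738, plus strand: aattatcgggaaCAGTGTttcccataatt

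Tfrc held 4 separate matches in its 3' UTR, the largest number in any gene searched, and only 2 genes held 2 or more. One of the matches in Tfrc contains 1 G-U pair, and the other hairpins shown contain 0. The remaining 6 genes had no match in these letters, which says nothing about other forms of the element. A match is a description of the sequence, and neither binding nor iron was measured in these mice.

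Total counts ranged from 20216507 to 28265960 per library, and 18702 genes were tested. Stim1 itself was at 72.8, 129 and 186 CPM in Stim1 cKO, Stim1 HT and Stim1 Ctrl, with reads of undeleted exons and of cells without Cre included. Its Stim1 cKO level was 1.77-fold below Stim1 HT and 2.56-fold below Stim1 Ctrl. Although it is the deleted gene, neither of the tests described below called it. Levels are given as CPM, counts relative to library size, scaled between libraries with edgeR's TMM factors. The Stim1 cKO library stood apart in that 7 of 7 listed photoreceptor markers were over 2-fold above both controls, with a summed level of 1034 CPM, where Stim1 HT had 12.9 and Stim1 Ctrl 11.7 CPM. Pde6b and Crx were not analysed here. Since this is the only Stim1 cKO library, no result could be given without it. The 4 secretory ameloblast markers summed to 3584, 31173 and 23113 CPM in Stim1 cKO, Stim1 HT and Stim1 Ctrl, and the 7 maturation markers to 994, 434 and 216 CPM in the same order. Much of the maturation sum came from 1 gene, Odam, at 694, 196 and 75.1 CPM. Ameloblast transcripts were thus present in all 3 libraries, in unequal amounts. In bulk tissue, fewer cells of a type and less RNA per cell cannot be told apart.

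The iron genes lay in both directions from the controls in Stim1 cKO, with the median of their log2 fold changes at -0.02 against -0.01 over all genes tested. Slc40a1 and Trf were more than 2-fold above both controls and Steap3 and Aco1 more than 2-fold below both, while the ferritin chains, which carried most of the reads, differed from each control by log2 ratios between -0.37 and 0.24. The study's thresholds, an adjusted p under 0.01 together with a change of over 2-fold, were used for calls. By edgeR's quasi-likelihood test, with p-values adjusted over all genes by the Benjamini-Hochberg method, 0 of the 10 were called, against 0.0749% of all genes tested. Slc40a1, Steap3, Aco1 and Trf, 4 of the 10, had an unadjusted p under 0.05, as did 31.9% of all genes. DESeq2, the tool of the study, called 1 of the 10 as higher, Slc40a1, and 0 as lower, where it called 6.30% of all genes as higher and 5.26% as lower. The only spread that these tests can use is how far Stim1 HT and Stim1 Ctrl lie apart.

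Counted without a test, 2 of the 10 were over 2-fold above both controls (19.1% of all genes) and 2 were over 2-fold below both (8.23%). With upper-quartile scaling or scaling by library size only, 0 were over 2-fold below both, and these scalings put the median of all genes at 0.12 and 0.25 on the log2 scale. Without Stim1 HT, 3 were, since Tfr2 was then added. Above both controls by any amount were 5 genes (43.6% of all genes), below both were 4 (42.1%), and Ftl1 lay between them. Between Stim1 HT and Stim1 Ctrl, 0 of the 10 differed more than 2-fold, where 13.5% of all genes did. These shares are for genes of all levels, and with 10 genes they give no count that sets the iron genes apart.

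**Figure D1:**
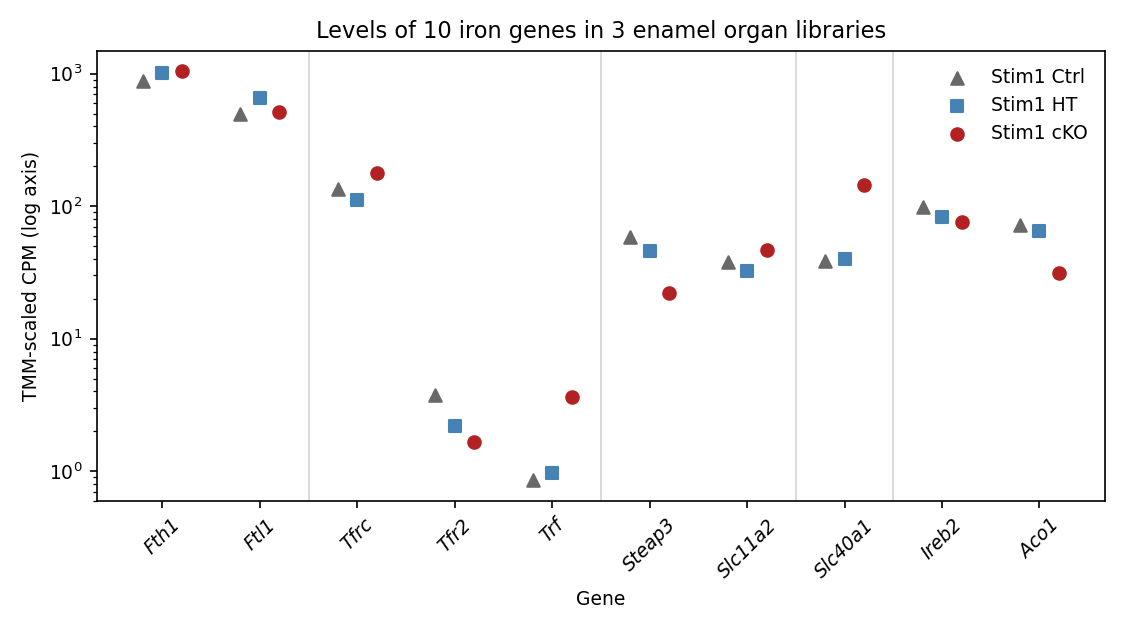
Level of each of the 10 iron genes in each library, as TMM-scaled CPM on a log axis, with 1 point per library and no error bar because each genotype has 1 library. Grey lines separate storage, transferrin uptake, endosomal reduction and import, export, and regulation. The Stim1 cKO point lies clear of both control points for Slc40a1 and Trf (above) and for Steap3 and Aco1 (below).

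Fth1 (chromosome 19, 9980598 to 9985098) encodes the ferritin heavy chain, the subunit with the ferroxidase site. It had 25307, 19851 and 22715 counts in Stim1 cKO, Stim1 HT and Stim1 Ctrl, or 1045, 1008 and 883 CPM. The Stim1 cKO level was the highest, by a log2 ratio of 0.05 over Stim1 HT, which was smaller than the log2 ratio of 0.19 between the 2 controls. Its log2 fold change was 0.15 (SE 0.35), and edgeR's quasi-likelihood test gave an adjusted p of 0.798.

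Ftl1 (chromosome 7, 45457944 to 45459884) encodes the light chain, which favours the growth of the iron core. It was at 511, 659 and 497 CPM in Stim1 cKO, Stim1 HT and Stim1 Ctrl. Its Stim1 cKO level lay between the controls, whose own log2 ratio of 0.41 was larger than its distance from either. The log2 fold change of Ftl1 was -0.18 (SE 0.359, adjusted p 0.755 in the same edgeR test), and its sign turned to 0.07 with scaling by library size only and to 0.02 without Stim1 HT.

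Together the ferritin chains took 0.175%, 0.162% and 0.126% of all counts in Stim1 cKO, Stim1 HT and Stim1 Ctrl. Within the 10 genes they held 75.5%, 81.3% and 75.6% of the counts in the same order. Ferritin mRNA was thus the bulk of the iron gene signal in each library. Both chains have processed pseudogenes with near-identical sequence, and the exons of Ftl1 overlap those of Gm10252 on the opposite strand and of Gm22133 on the same strand, so their counts are uncertain to that extent. The 4 listed ferritin pseudogenes held few reads. The largest, Ftl1-ps1, had 64, 48 and 40 counts in Stim1 cKO, Stim1 HT and Stim1 Ctrl. Fth-ps2 had 38, 8 and 9 counts in that order.

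The ratio of heavy to light chain needs no scaling between libraries. There were 2.05 counts of Fth1 for each count of Ftl1 (95% exact interval 2.0 to 2.09) in Stim1 cKO, 1.53 (1.5 to 1.56) in Stim1 HT and 1.77 (1.74 to 1.81) in Stim1 Ctrl. The order of the libraries is clear of counting error, which is all that the intervals cover. The controls also differed from each other beyond it, and the spread between mice is not known. Per kilobase of the principal transcript the ratio was 1.33, 0.99 and 1.15 in Stim1 cKO, Stim1 HT and Stim1 Ctrl. Per kilobase of exon it was 0.791, 0.59 and 0.685 in the same order, so which chain was higher depends on the length used.

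Tfrc (chromosome 16, 32608920 to 32632794) encodes transferrin receptor 1, the main route of iron into most cells. It had 4318, 2210 and 3491 counts in Stim1 cKO, Stim1 HT and Stim1 Ctrl, or 178, 112 and 136 CPM. The Stim1 cKO level was above both controls, by a log2 ratio of 0.67 over Stim1 HT and 0.39 over Stim1 Ctrl, while the controls differed by -0.27. The log2 fold change of 0.53 (SE 0.281) did not pass edgeR's test (adjusted p 0.258).

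Set against ferritin in the same library, Tfrc had 11.5 counts per 100 ferritin counts (95% exact interval 11.1 to 11.8) in Stim1 cKO, 6.73 (6.44 to 7.03) in Stim1 HT and 9.83 (9.49 to 10.2) in Stim1 Ctrl. Here the Stim1 HT library was the farthest from the others, so that the controls differed more than Stim1 cKO and Stim1 Ctrl did. Per kilobase of the principal transcript the values were 2.97, 1.69 and 2.51.

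Tfr2 (chromosome 5, 137569840 to 137587481) encodes transferrin receptor 2, an iron sensor of hepatocytes and erythroid precursors. It had only 40, 43 and 97 counts in Stim1 cKO, Stim1 HT and Stim1 Ctrl, or 1.65, 2.18 and 3.77 CPM. The Stim1 cKO level was the lowest, but the log2 ratio of -0.79 between the controls was larger than the -0.40 from Stim1 HT to Stim1 cKO. Tfr2 had a log2 fold change of -0.85 (SE 0.654, adjusted p 0.41 in edgeR's test), so it was not called.

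Trf (chromosome 9, 103204001 to 103230444) encodes transferrin, the plasma iron carrier, made mainly by hepatocytes and also by oligodendrocytes and the retina. It had 88 counts (95% Poisson interval 70.6 to 108) in Stim1 cKO, 19 (11.4 to 29.7) in Stim1 HT and 22 (13.8 to 33.3) in Stim1 Ctrl. At 3.64, 0.965 and 0.855 CPM, Trf was low in all 3 libraries, and the Stim1 cKO count lay clear of both controls by counting error. The log2 fold change of Trf was 1.99 (SE 0.557), and it was called neither by edgeR (adjusted p 0.0844) nor by DESeq2 (0.256).

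Markers of cell types that make transferrin moved with it in part. The photoreceptor markers (7 of 9 listed) were at 1034 CPM against at most 12.9 CPM, as given above. The 5 of 6 listed markers of the retinal pigment epithelium summed to 26.4, 7.77 and 5.36 CPM in Stim1 cKO, Stim1 HT and Stim1 Ctrl, with all 5 above both controls, 3 of them over 2-fold, and Rpe65 was not analysed here. The 3 of 5 listed hepatocyte markers summed to 7.89, 3.10 and 1.01 CPM, most of it from Ttr, which also belongs to the pigment epithelium list, and Alb, the defining gene of that cell type, had 9, 2 and 7 counts. Myelinating glia markers went the other way, with sums of 732, 1416 and 1956 CPM over 7 of 7 listed genes, 5 of them below both controls. The part of any of these cells in the Trf counts was not tested. The gene Gm20425 shares exon sequence with Trf on the same strand, so reads of both cannot be told apart.

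Steap3 (chromosome 1, 120190757 to 120272705) encodes the endosomal ferrireductase, known best from erythroid precursors. It had 540, 905 and 1495 counts in Stim1 cKO, Stim1 HT and Stim1 Ctrl, or 22.3, 45.9 and 58.1 CPM. The Stim1 cKO level was 2.06-fold below Stim1 HT and 2.60-fold below Stim1 Ctrl, and the gap between the controls was 1.26-fold. Steap3 had a log2 fold change of -1.22 (SE 0.28), and the adjusted p of edgeR's quasi-likelihood test (0.0587) and of DESeq2 (0.0144) both missed the threshold of 0.01. The ratio to the nearer control is just past 2-fold, and with scaling by library size only the log2 fold change was -0.96.

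Erythroid markers moved with Steap3. The 9 of 10 listed genes summed to 1034, 2285 and 1653 CPM in Stim1 cKO, Stim1 HT and Stim1 Ctrl, with 8 below both controls and 6 over 2-fold below both, and Ahsp was not analysed here. The globin genes are near-identical pairs whose reads the counting could have split. Within the list, Hba-a2 lay between the controls at 185 CPM, and Klf1, an erythroid transcription factor, had 15, 103 and 311 counts in the same order. The part of erythroid cells in the Steap3 counts was not tested. Tfrc was above both controls in Stim1 cKO, as given above, so a ratio of Steap3 to Tfrc holds the differences of both genes. Steap3 had 12.5 counts per 100 Tfrc counts (95% exact interval 11.4 to 13.7) in Stim1 cKO, 41.0 (37.9 to 44.3) in Stim1 HT and 42.8 (40.3 to 45.5) in Stim1 Ctrl, and here the intervals of the controls overlapped while that of Stim1 cKO lay well below both.

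Slc11a2 (chromosome 15, 100387898 to 100425072) encodes DMT1, the divalent metal importer of endosome and gut. It was at 46.5, 32.7 and 37.7 CPM in Stim1 cKO, Stim1 HT and Stim1 Ctrl. Its Stim1 cKO level was the highest, by log2 ratios of 0.51 and 0.30, against -0.21 between the controls. The log2 fold change was 0.40 (SE 0.24, adjusted p 0.304 in edgeR's test). Its exons overlap Gm5475 on the opposite strand. Of the genes of the endosomal step, the receptor and the importer were thus above both controls in Stim1 cKO and the reductase was below both, with none called.

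Slc40a1 (chromosome 1, 45908068 to 45926523) encodes ferroportin, the only known iron exporter of mammalian cells. It had 3504, 793 and 1001 counts in Stim1 cKO, Stim1 HT and Stim1 Ctrl, or 145, 40.3 and 38.9 CPM. The controls were almost alike, with a log2 ratio of 0.05, and the Stim1 cKO level was 3.60-fold above Stim1 HT and 3.72-fold above Stim1 Ctrl. The log2 fold change of 1.87 (SE 0.236) missed the threshold of 0.01 in edgeR's quasi-likelihood test (adjusted p 0.0208). DESeq2 called it (adjusted p 1.99e-06), and the adjusted p of the alternatives ran from 1.99e-06 to 0.0259. Among the 10 genes it had the smallest adjusted p.

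The same Slc40a1 counts can be set against other genes in ratios that need no scaling between libraries. There were 81.1 counts of Slc40a1 per 100 of Tfrc (95% exact interval 77.6 to 84.9) in Stim1 cKO, against 35.9 (33.0 to 38.9) in Stim1 HT and 28.7 (26.7 to 30.8) in Stim1 Ctrl. Per 100 ferritin counts there were 9.30 (8.98 to 9.63) in Stim1 cKO, 2.41 (2.25 to 2.59) in Stim1 HT and 2.82 (2.64 to 3.0) in Stim1 Ctrl. In both ratios the Stim1 cKO interval lay far above those of the controls, so the Stim1 cKO library held more exporter mRNA relative to uptake and storage mRNA. Fth1 and Ftl1, which carry the same kind of hairpin in their 5' UTR (shown above), had log2 fold changes of 0.15 and -0.18 beside the 1.87 of Slc40a1. In a 5' UTR the hairpin acts on translation, which RNA counts do not measure, so its part in these values was not tested.

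Ferroportin is abundant in macrophages that recycle red cells. The macrophage list was not higher with Slc40a1: its 10 of 10 listed genes summed to 379, 519 and 435 CPM in Stim1 cKO, Stim1 HT and Stim1 Ctrl, with 8 below both controls and 5 of these over 2-fold. Much of the Stim1 cKO sum came from Lyz2, the 1 gene above both controls, at 229, 195 and 64.6 CPM in the same order. The maturation ameloblast list was higher, with 6 of 7 genes above both controls, 4 of them over 2-fold. Slc24a4, an exchanger of that stage, was at 22.1, 7.56 and 5.98 CPM in Stim1 cKO, Stim1 HT and Stim1 Ctrl, and Klk4, the protease of that stage, at 29.0, 30.2 and 12.7 CPM. Within this list the controls were often apart, unlike for Slc40a1 (0.05 on the log2 scale). Stim1 HT exceeded Stim1 Ctrl on that scale by 1.24 for Klk4, 1.0 for Amtn, 1.39 for Odam and 1.15 for Wdr72. Cftr (0.84), Slc24a4 (0.34) and Slc4a4 (-0.02) differed less. Klk4 and Amtn in Stim1 cKO were close to Stim1 HT, at log2 ratios of -0.06 and 0.05. The retinal lists were higher in Stim1 cKO as well, as given above. The part of each cell type in the Slc40a1 counts was not tested.

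**Figure D2:**
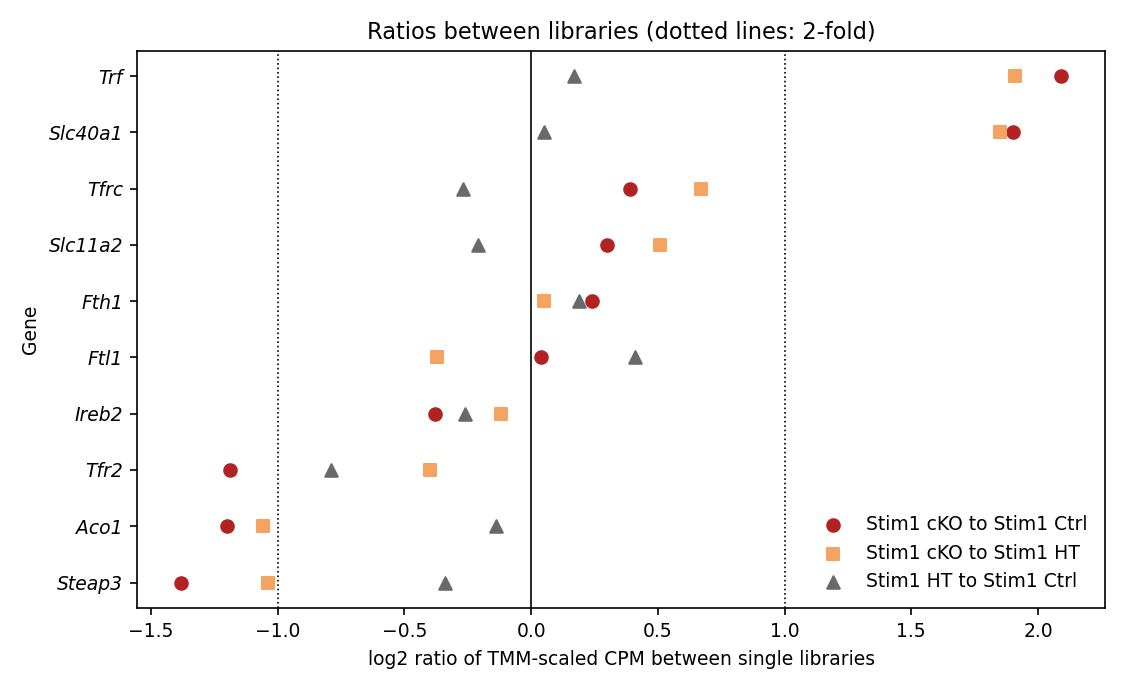
Log2 ratio of TMM-scaled CPM for each pair of libraries, with 1 symbol per pair and dotted lines at 2-fold. For Slc40a1, Trf, Aco1 and Steap3 both Stim1 cKO ratios lie beyond 2-fold and the ratio between the controls lies between -0.34 and 0.17, whereas for Fth1, Ftl1, Ireb2 and Tfr2 the ratio between the controls is larger in size than a ratio to Stim1 cKO.

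Aco1 (chromosome 4, 40143081 to 40198338) encodes IRP1, which is either a cytosolic aconitase with an iron-sulfur cluster or, without the cluster, an RNA-binding regulator. Aco1 was represented by 759, 1290 and 1854 counts, or 31.4, 65.5 and 72.0 CPM, in Stim1 cKO, Stim1 HT and Stim1 Ctrl. Its Stim1 cKO level was 2.09-fold below Stim1 HT and 2.30-fold below Stim1 Ctrl, while the controls differed 1.10-fold. Aco1 had a log2 fold change of -1.13 (SE 0.256), and neither edgeR's quasi-likelihood test (adjusted p 0.057) nor DESeq2 (0.0111) called it. With scaling by library size only, its log2 fold change was -0.87.

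Ireb2 (chromosome 9, 54863789 to 54912530) encodes IRP2, the regulator without a cluster, which is removed by proteolysis when iron is plentiful. Its level was 76.2, 82.6 and 98.9 CPM in Stim1 cKO, Stim1 HT and Stim1 Ctrl. Its log2 ratio of -0.12 between Stim1 cKO and Stim1 HT was smaller than the -0.26 between the controls. The log2 fold change of Ireb2 was -0.25 (SE 0.271, adjusted p 0.548 in edgeR's test), and it became 0.01 with scaling by library size only.

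Within a library, there were 0.412 counts of Aco1 for each count of Ireb2 (95% exact interval 0.378 to 0.448) in Stim1 cKO, 0.792 (0.736 to 0.853) in Stim1 HT and 0.728 (0.686 to 0.773) in Stim1 Ctrl. The control intervals overlapped and the Stim1 cKO interval lay below both. Per kilobase of the principal transcript the ratio was 0.62, 1.19 and 1.10. Aco1 was thus the more abundant regulator mRNA in both controls and the less abundant in Stim1 cKO, on a scale of counts per length.

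**Figure D3:**
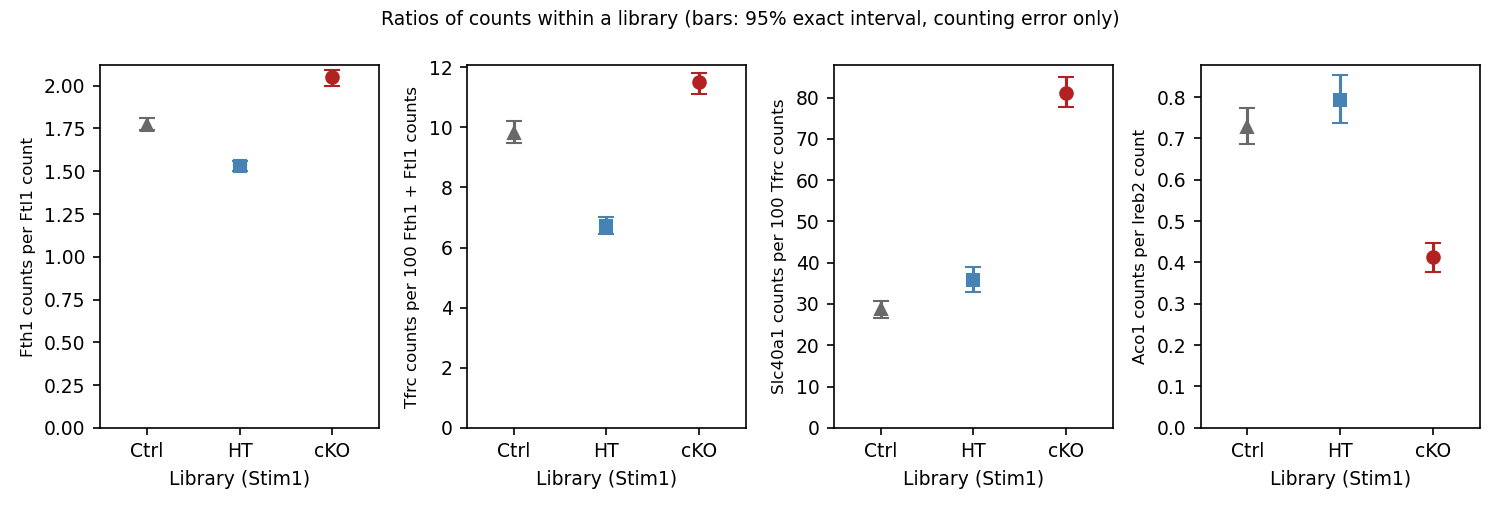
Ratios of counts between iron genes within each library, from left to right Fth1 to Ftl1, Tfrc per 100 ferritin counts, Slc40a1 per 100 Tfrc counts and Aco1 to Ireb2. Points are single libraries and bars 95% exact intervals of counting error. The intervals of Stim1 HT and Stim1 Ctrl overlap only for Aco1 to Ireb2. Stim1 cKO is the highest in the first 3 panels and the lowest in the last.

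Ranked per length of the principal transcript, as TPM, counts per length relative to the library's sum of such values, the ferritin chains led in every library. Fth1 was at 1683, 1304 and 1243 TPM in Stim1 cKO, Stim1 HT and Stim1 Ctrl, and Ftl1 at 1269, 1316 and 1081 TPM. Both stood at or above percentile 99.5 of 20676 genes in each library, so they were among the most abundant mRNAs of the tissue. Below them, the order in Stim1 cKO was Slc40a1, Tfrc, Slc11a2, Ireb2, Aco1, Steap3, Trf and Tfr2, and in Stim1 Ctrl it was Tfrc, Aco1, Ireb2, Slc11a2, Slc40a1, Steap3, Tfr2 and Trf. The order in Stim1 HT differed from that in Stim1 Ctrl only in Ftl1 standing above Fth1 and Slc40a1 above Slc11a2. These neighbours lay close, as Slc11a2, Slc40a1 and Steap3 did in Stim1 Ctrl at 26.2, 24.3 and 23.7 TPM, and no spread within a genotype is known to separate them. On this scale only, Slc40a1 and Tfrc changed places. At 103 TPM in Stim1 cKO Slc40a1 stood above Tfrc (87.7 TPM), while at 23.1 TPM in Stim1 HT and 24.3 TPM in Stim1 Ctrl it stood below Tfrc (44.3 and 58.4 TPM). Per kilobase of exon, Slc40a1 stayed below Tfrc in Stim1 cKO, at 55.8 per 100 of Tfrc, as it did in raw counts (81.1). Its percentile among all genes was 93.1, 72.0 and 70.5 in Stim1 cKO, Stim1 HT and Stim1 Ctrl. Steap3 went from percentile 65.6 in Stim1 HT and 70.0 in Stim1 Ctrl to 47.7 in Stim1 cKO. Trf and Tfr2 were the lowest of the 10 in each library, at 0.7 to 3.4 TPM.

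Other genes of iron biology were taken from 4 lists that hold none of the 10 genes. Of 63 genes in them, 60 were listed and 59 tested, and edgeR called 0 of these at an adjusted p under 0.01 and over 2-fold. Of the 59, 18 had an unadjusted p under 0.05, where 31.9% of all genes did. DESeq2 called 2 as higher and 6 as lower, against 6.30% and 5.26% of all genes, and the same shares are the background of the counts given per list. Below both controls were 36 of the 59 (42.1% of all genes) and above both were 15 (43.6%), with 8 over 2-fold below (8.23%) and 5 over 2-fold above (19.1%). The median log2 fold change was -0.33, against -0.01 over all genes and -0.02 over the 10.

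In the list of uptake, reduction and efflux, 5 of 15 genes had an unadjusted p under 0.05, and DESeq2 called 1 as higher and 0 as lower. The median log2 fold change was -0.21. Steap2, a ferrireductase and cupric reductase of the plasma membrane, was at 47.4, 17.3 and 15.8 CPM in Stim1 cKO, Stim1 HT and Stim1 Ctrl, with adjusted p-values of 0.0304 (edgeR) and 0.00359 (DESeq2). Slc39a8, an importer of zinc, manganese and iron, was at 96.1, 47.6 and 45.3 CPM in the same order. Heph, a ferroxidase that works with ferroportin, lay the other way, over 2-fold below both controls, at 15.9, 32.3 and 37.0 CPM (edgeR adjusted p 0.0615). In the Stim1 cKO library the level of the exporter was thus above, and that of this partner below, the levels of both controls. Cp, another ferroxidase gene of the list, lay above both, as the exporter did. It was at 70.6, 41.4 and 44.5 CPM in Stim1 cKO, Stim1 HT and Stim1 Ctrl (adjusted p 0.113 in edgeR's test). Hephl1, at the bottom of the list with Heph, had 13, 11 and 45 counts and Meltf, near the top, 111, 46 and 9 counts, and in both the controls themselves were over 2-fold apart.

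Ltf, for lactoferrin, an iron-binding protein of secretions and neutrophil granules, had 34882, 7054 and 2872 counts in Stim1 cKO, Stim1 HT and Stim1 Ctrl. Its level of 1441 CPM in Stim1 cKO compares with 358 and 112 CPM, so that the controls were also far apart, and the log2 fold change of 2.62 did not pass edgeR's test (adjusted p 0.0731). The neutrophil list was not higher with it: 6 of 6 listed genes were below both controls, 5 of them over 2-fold, with sums of 51.3, 213 and 195 CPM in Stim1 cKO, Stim1 HT and Stim1 Ctrl.

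In the list of ferritin turnover, chaperones and systemic regulators, 10 of 13 genes were listed, and Ftmt, Hamp and Hamp2 were not analysed here. Of the 10, 3 had an unadjusted p under 0.05, and DESeq2 called 1 as higher and 1 as lower. Epas1 encodes the hypoxia factor HIF-2 alpha, which activates ferroportin transcription in the gut. Its part in the Slc40a1 counts was not tested. Epas1 was at 438, 113 and 103 CPM in Stim1 cKO, Stim1 HT and Stim1 Ctrl. For its log2 fold change of 2.02, edgeR gave an adjusted p of 0.0237 and DESeq2 one of 8.37e-09. Hfe2, for hemojuvelin, a co-receptor in the control of hepcidin that skeletal muscle also expresses, was at 32.3, 162 and 187 CPM, a log2 fold change of -2.44 (adjusted p 0.021 in edgeR, 2.34e-11 in DESeq2). Skeletal muscle markers moved with Hfe2, with 5 of 6 below both controls, 4 of them over 2-fold, and sums of 4205, 16733 and 19709 CPM, and their part in the Hfe2 counts was not tested.

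Tmprss6, for a protease that cleaves hemojuvelin, had 392, 92 and 4 counts in Stim1 cKO, Stim1 HT and Stim1 Ctrl, so that its controls differed far more than 2-fold and its log2 fold change of 2.76 did not pass edgeR's test (adjusted p 0.253). Neo1, for neogenin, a receptor that binds hemojuvelin, was at 113, 164 and 238 CPM (log2 fold change -0.83, adjusted p 0.182 in edgeR's test).

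The list of haem synthesis, breakdown and transport had the lowest median log2 fold change of the 4, -0.48, with 13 of 17 tested genes below both controls and 3 above both. Of the 17, 5 had an unadjusted p under 0.05, and DESeq2 called 0 as higher and 2 as lower. One of these was Alas2, for the erythroid form of the first enzyme of the pathway, at 23.1, 61.5 and 83.6 CPM in Stim1 cKO, Stim1 HT and Stim1 Ctrl (log2 fold change -1.65, adjusted p 0.0414 in edgeR's test). Its 5' UTR is a textbook site of the iron-responsive element, with 1 UTR match in the search. Alad, the next enzyme, was at 19.5, 44.2 and 41.9 CPM. Alas1, the form of other tissues, and the haem exporter Flvcr1 had the largest values of the list, at log2 fold changes of only 0.38 and 0.29, neither with an unadjusted p under 0.05. The erythroid markers moved with this list too, and their part in it was not tested.

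In the list of mitochondrial iron and iron-sulfur clusters, 5 of 17 genes had an unadjusted p under 0.05, and DESeq2 called 0 as higher and 3 as lower. The median log2 fold change was -0.27. Iba57 and Isca1, which act late in cluster assembly, were over 2-fold below both controls. Iba57 was at 5.16, 16.3 and 18.0 CPM in Stim1 cKO, Stim1 HT and Stim1 Ctrl (log2 fold change -1.73), and Isca1 at 50.3, 103 and 109 CPM (log2 fold change -1.08). Both were called by DESeq2 (adjusted p 0.00651 and 0.00918). At the top of the list, Slc25a28, the mitoferrin of non-erythroid cells, was at a log2 fold change of 0.71 (adjusted p 0.156 in edgeR's test), and Fdxr had one of 0.13. Bola3 held 1 match of the hairpin letters in a UTR.

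**Figure D4:**
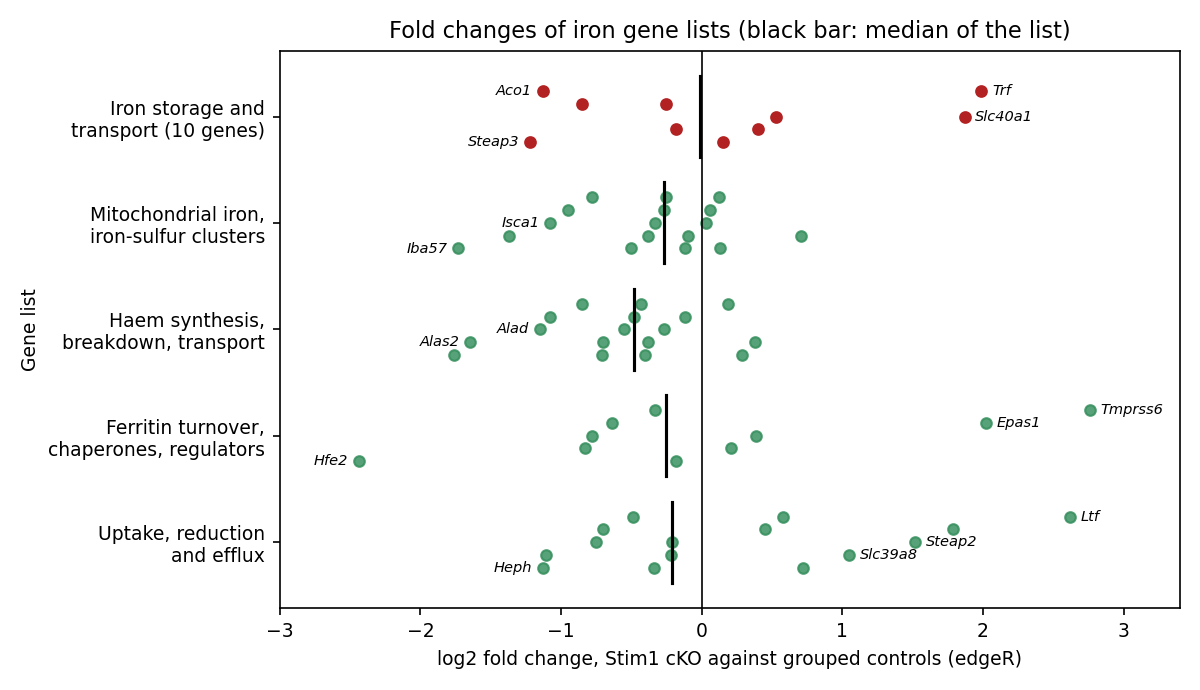
Log2 fold change of Stim1 cKO against the grouped controls in edgeR for the 10 iron storage and transport genes (red) and for the tested genes of 4 other iron lists (green), with 1 point per gene. Black bars are list medians, from -0.48 for the haem list to -0.02 for the 10 genes, and the names mark genes of the text that were over 2-fold from both controls.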

How the data were processed

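RNA of 3 mouse incisor enamel organs, 1 per genotype, was analysed. The counts deposited by the authors are raw and per gene symbol. They come from paired-end reads that were quality filtered, trimmed and mapped with STAR. The genome build, annotation, counting tool and strand setting are not given in the sources used here. The library kit is NEBNext Ultra II (directional) in the methods but SMARTER in the labels. The smallest count listed is 1, so genes without a read in any one library are not in the tests. The 10 genes and the lists were chosen with earlier results of these data known.

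The contrast of Stim1 cKO with both controls as 1 group was fitted in edgeR 4.0.16 (R 4.3.3) after TMM (factors 1.13, 0.975 and 0.911) and filterByExpr, with quasi-likelihood F-tests and Benjamini-Hochberg adjustment over 18702 genes. The common dispersion was 0.106, on 1 residual degree of freedom. With 1 library per genotype, p-values rest on the gap between the controls, and no result has a replicate check. DESeq2 1.42.0, other scalings, filters and thresholds, and leaving out a control were alternatives. The fits were tested on simulated data. Intervals are exact at 95% and cover counting error only, as does the detection limit of 3 counts (0.117 to 0.152 CPM). Positions, lengths and sequences are from GENCODE M21 on GRCm38.

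Named were the 10 genes, Stim1 and, from each other list, the 2 highest and 2 lowest log2 fold changes and genes over 2-fold from both controls. Single marker genes, the ferritin pseudogenes, Bola3, Cp and overlapping genes were named after their values were seen. A few genes that this rule selects are not reported here.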

Additional observations from a re-analysis of the deposited data

How the results depend on the processing

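Of 79 single-gene results retested under the alternatives, 75 kept their direction and their side of the threshold, and of 20 with a control left out and no test, 19 kept their direction. The reversals were Ftl1, at 0.07 with library size only and 0.02 without Stim1 HT (-0.37 without Stim1 Ctrl), and Ireb2, at 0.01 with library size only, a scaling that moved the median of all genes to 0.25. Upper-quartile scaling moved it to 0.12. Of the 10 iron genes, the number called was 1 with no filter (Slc40a1, edgeR adjusted p 0.00476), 1 with DESeq2 and 1 at an adjusted p under 0.05. Of the other iron genes, 3 were called with no filter, 8 with DESeq2 and 5 at an adjusted p under 0.05. Iron genes of the 10 over 2-fold below both controls became 0 with upper-quartile scaling and 0 with library size only, and 2 to 3 with a control left out, where those above stayed at 2. Other iron genes over 2-fold below both became 5 with upper-quartile scaling, 5 with library size only, 13 at 1.5-fold and 9 to 14 with a control left out (14 without Stim1 HT), and those above 5 to 7. The cause of these shifts was not tested. Per kilobase of exon, the ratio of Fth1 to Ftl1 was 0.791, 0.59 and 0.685 in Stim1 cKO, Stim1 HT and Stim1 Ctrl, and that of Tfrc per 100 ferritin 4.23, 2.32 and 3.51. Per kilobase of the principal transcript, added after seeing the data, they were 1.33, 0.99 and 1.15, and 2.97, 1.69 and 2.51. The alternatives for the 4 other iron lists, and the 2-fold counts with a control left out, were also added then. The ratios of Slc40a1 to Tfrc and to ferritin, of Steap3 to Tfrc and of Aco1 to Ireb2 were not in the plan. No paired analysis was possible because each genotype has 1 library. Low counts make the counting error of Tfr2, Trf and the pseudogenes large relative to their levels.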
